A study of Pinellia ternata with 12 samples.

Results

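The copper miRNAs are 5 families of small RNAs of plants, miR397, miR398, miR408, miR528 and miR857. Their members were taken by name from the table of known miRNAs of Pinellia ternata, a medicinal herb of the arum family. A name was included where miR397, miR398, miR408, miR528 or miR857 follows the species prefix and no further digit follows. This gave 41 of the 1597 names, 14 of miR397, 15 of miR398, 10 of miR408 and 1 each of miR528 and miR857.

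Leaf RNA of seedlings was measured in 3 heat libraries, from plants held at 40 ℃ for 24 h, and in 3 control libraries, from plants grown at 25 ℃ with 0 h of heat. By the published methods, both groups shared light intensity, day length and other growth conditions. No transgene or mutant was used, and small RNA and mRNA were sequenced under the same replicate numbers. The labels put all controls on an earlier day than all heat libraries, and no control carries the later day. Heat and day of harvest therefore cannot be told apart. A treatment tag calls all libraries heat-treated, so the groups follow the titles, the source and the day in the labels, and the labels call the replicates biological without saying whether both assays used the same plants. No genome of the plant was used here, so each miRNA carries the name of the matching miRNA of another species, without a chromosomal position.

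In plants, copper is held by abundant proteins that carry electrons or detoxify superoxide. When copper is scarce in Arabidopsis, the transcription factor SPL7 switches on the copper miRNAs, which cleave mRNAs of copper proteins that the cell can spare. miR398 targets the Cu/Zn superoxide dismutases and their copper chaperone, miR397 and miR857 target laccases, miR408 targets laccases and plantacyanin, and miR528, known from monocots, targets an ascorbate oxidase in rice. In Arabidopsis, miR398 is also known for its part in heat tolerance.

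The mature sequences below are those of the 14 names with at least 100 reads, which carried 97.2% of the 21617 reads of all copper miRNA names. They are shown because several names differ by a single base or by where the RNA starts, and the results turn on which of them changed. All are taken from the study's table of known miRNAs, and the capitals mark the seed, bases 2 to 8 from the 5′ end.
osa-miR398b: uGUGUUCUcaggucgccccug
lus-miR398f: gGUGUUCUcaggucgccccug
zma-miR398a-3p: uGUGUUCUcaggucgcccccg
stu-miR398b-3p: uUGUGUUCucaggucaccccu
zma-miR398b-5p: gGGGCGGAcugggaacacaug
smo-miR408: uGCACUGCcucuucccuggcug
gma-miR408d: uGCACUGCcucuucccuggc
ata-miR408-3p: uGCACUGCcucuucccugcc
ath-miR408-3p: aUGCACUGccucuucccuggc
osa-miR528-5p: uGGAAGGGgcaugcagaggag
bna-miR397a: uCAUUGAGugcagcguugaugu
aly-miR397b-3p: uCAGCGUUgcauucaauuaug
mtr-miR397-3p: uCUACGCUacacucaauuaug
csi-miR857: uUUUGAAUguugaaugguggcuau

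Of the 41 names, 31 were of the guide strand, the arm known to act on targets, and 10 were of the opposite arm. The seed GUGUUCU was shared by 7 miR398 names with 6081 reads. Counted from the 5′ end of osa-miR398b, lus-miR398f carries U1G, zma-miR398a-3p carries U20C, and stu-miR398b-3p starts 1 base earlier and carries G15A. In miR408, gma-miR408d is smo-miR408 without its last bases, and ata-miR408-3p carries G19C. The sequence of ath-miR408-3p starts 1 base before smo-miR408, which moves its seed to UGCACUG. That seed belonged to 3 names with 2329 reads, against 4887 reads for the 3 names with the seed GCACUGC. Among guide-strand names, 74.2% began with U, against 49.1% of all names, and 74.2% were 21 bases long, against 55.9%. Their median GC content was 57.1%, against 45.5% for all names. Guide-strand names were picked by bases shared with a reference, and many are near-copies of each other, so nothing is read from these comparisons.

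The deposited values are RPM, reads scaled to a fixed total of the reads assigned to known miRNAs in the same library, so each value is a share of that total. All 9582 values came out as whole reads within 0.01 of a read. The libraries held 479324 to 1475482 such reads under heat and 871814 to 2039055 in controls, and 1 read was worth 0.678 to 2.09 RPM under heat and 0.490 to 1.15 RPM in controls. The copper miRNA names together had 1014, 2802 and 619 RPM in heat replicates 1 to 3, against 4372, 6396 and 1409 RPM in control replicates 1 to 3. These sums overlapped between the groups. In leaf tissue, fewer cells of a type and less RNA per cell cannot be told apart, and the leaf label was not checked against marker genes.

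Control replicate 2 stood apart from the other libraries and touches most results below. Its correlation with the other libraries over all names was 0.669 to 0.782 on the log2 scale, against 0.808 to 0.905 among the remaining pairs. It held 60.3% of the copper miRNA reads, against 29.9% of the reads of all names. Of the 41 names, 51.2% were highest in this library, against 37.4% of all 1597 names. Of the 14 names with at least 100 reads, 10 were highest in it, which is 71.4%, against 33.3% of all names with as many reads. That minimum counts reads of control replicate 2 itself, so the 71.4% is partly set by how the names were picked. In 6 of these 14 names it exceeded the next library more than 5 times, which is 42.9%, against 15.2% of all names with as many reads. With no minimum of reads these shares were 19.5% of the 41 names and 14.2% of all 1597. Without this library 7 of the 14 had under 100 reads, a count that was not made over all names. Fold changes of miRNAs are therefore given with and without it.

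**Figure D1:**
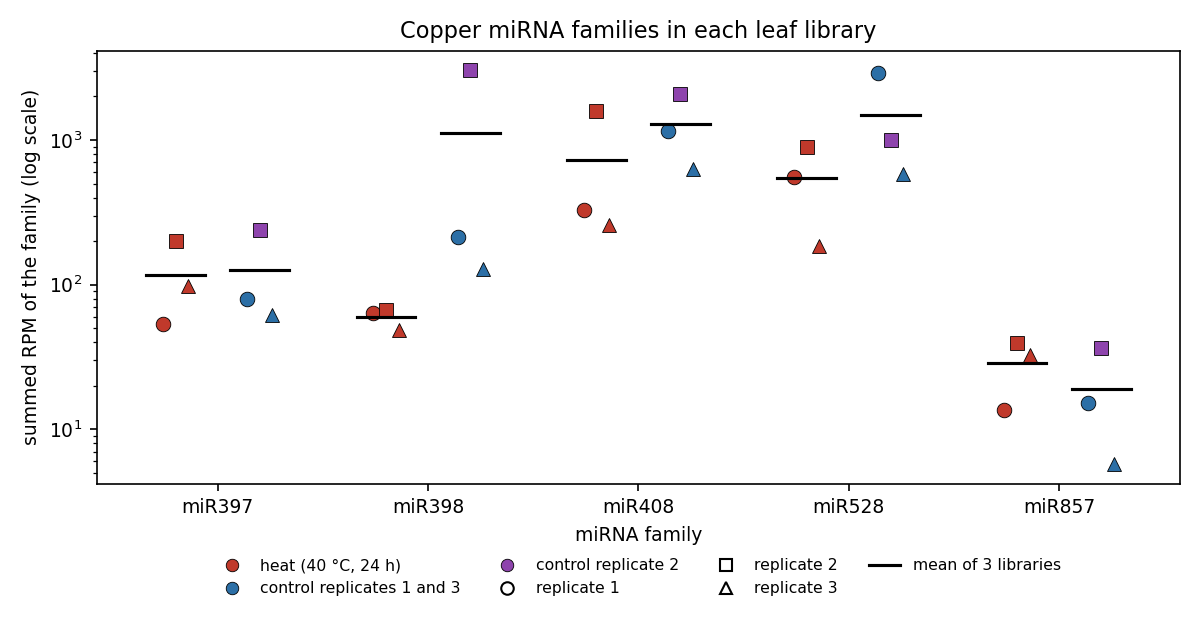
Summed RPM of each copper miRNA family (log scale) in the 3 heat libraries (left in each pair, red) and the 3 control libraries (right, blue, with control replicate 2 in purple), where marker shapes give the replicate number and black lines the means. The miR398 sums of all heat libraries, 48.1 to 66.8 RPM, lie below those of all controls, 128 to 3028 RPM, and the other families overlap.

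miR398 was the family whose sum fell under heat. A sum or a name is here said to pass, or to have risen or fallen, where the unadjusted p of the test named, limma unless stated, was under 0.05 and the fold change exceeded 1 log2 unit in size. The 15 miR398 names summed to 63.6, 66.8 and 48.1 RPM in heat replicates 1 to 3, against 212, 3028 and 128 RPM in control replicates 1 to 3. All heat libraries lay below all controls, and control replicate 2 was far above the rest. The means were 59.5 ± 9.98 RPM under heat and 1123 ± 1651 RPM in controls (SD, n = 3 each), and the control mean without replicate 2 was 170 RPM. The log2 fold change, heat minus control on the log2(RPM + 1) scale, was -2.87 (standard error, SE, 1.06, adjusted p = 0.491 in limma over 699 family sums), which passed. Without control replicate 2 it was -1.47 (SE 0.43, adjusted p = 0.825 in limma), which passed too. No copper miRNA sum or name passed after adjustment in limma or edgeR, and 1 name, ath-miR408-3p, did in DESeq2. Among all family sums, 6.15% fell and 3% rose, and without control replicate 2 these shares were 3.58% and 2%. In edgeR, 8.44% fell and 4.29% rose with all libraries, and 4.58% fell and 3.29% rose without control replicate 2. Sums lying wholly below the controls made up 9.3%, and those wholly above 5.01%. The miR398 sum lost its pass without heat replicate 1 (log2 fold change -2.92), without heat replicate 3 (-2.72), and without control replicate 2 in edgeR (-1.37) and in DESeq2 (-1.41). DESeq2 with all libraries gave no p for it.

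The guide strand of miR398 also fell when summed alone, and the opposite arm was not tested on its own. The 11 guide-strand names summed to 54.9, 33.4 and 11.5 RPM under heat, against 173, 2901 and 107 RPM in controls. Their log2 fold change was -3.71 (adjusted p = 0.470 in limma), and -2.25 without control replicate 2 (adjusted p = 0.827 in limma), and both passed. The 4 names of the opposite arm stood at 8.67, 33.4 and 36.6 RPM under heat, against 39.0, 128 and 21.8 RPM in controls, and overlapped. The guide strand made up 86.4%, 50% and 23.9% of the miR398 reads in heat replicates 1 to 3, against 81.6%, 95.8% and 83.0% in control replicates 1 to 3. Heat replicate 1 lay within the range of the controls, and the other heat libraries lay below it, on 32 and 71 reads.

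The name osa-miR398b led the family with 4699 reads. It had 20.2, 12.5 and 0 RPM under heat, from 21, 6 and 0 reads, against 93.1, 2218 and 72.3 RPM in controls, from 86, 4523 and 63 reads. Every heat library was below every control, and a count of 0 in heat replicate 3 allows up to 2.03 RPM, the worth of 3 reads. On the log2 scale osa-miR398b changed by -5.23 (SE 1.54, adjusted p = 0.443 in limma) and passed. Its value was -3.65 without control replicate 2 (SE 1.51, adjusted p = 0.740 in limma), which did not pass. Without that control it passed in edgeR on the recovered reads, at a log2 fold change of -2.58 (adjusted p = 0.610).

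lus-miR398f, which differs from osa-miR398b in its first base, also fell. It had 10.6, 2.09 and 2.71 RPM under heat, from 11, 1 and 4 reads, against 19.5, 306 and 19.5 RPM in controls, from 18, 623 and 17 reads. The groups did not overlap. Its log2 fold change was -3.31 (SE 1.15, adjusted p = 0.482 in limma), and -2.01 without control replicate 2 (adjusted p = 0.740 in limma), where it did not pass. It did not pass without heat replicate 2 (-2.94) or heat replicate 3 (-3.08) either.

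The remaining miR398 names overlapped between the groups. zma-miR398a-3p had 8.67, 0 and 0.678 RPM under heat, against 5.41, 277 and 10.3 RPM in controls, with a log2 fold change of -3.43 (adjusted p = 0.527 in limma) and -1.75 without control replicate 2. stu-miR398b-3p had 3.86, 6.26 and 4.07 RPM under heat, against 33.6, 36.3 and 3.44 RPM in controls, and its log2 fold change was -1.67 (adjusted p = 0.605 in limma), and -1.14 without control replicate 2. The opposite-arm name zma-miR398b-5p had 0.964, 8.35 and 8.13 RPM under heat, against 3.25, 98.1 and 8.03 RPM in controls, with a log2 fold change of -1.50 and -0.17 without control replicate 2. None of the 3 passed in the main fit with all libraries. zma-miR398a-3p passed with all libraries at a pseudocount of 0.5 RPM (-3.89) or a filter at a mean of 5 RPM (-3.43). It also passed without control replicate 1 (-4.47) or heat replicate 1 (-4.39), and stu-miR398b-3p passed without control replicate 3 (-2.67). In these 3 names control replicate 2 was the highest library, and at least 1 other control lay below the highest heat library.

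**Figure D2:**
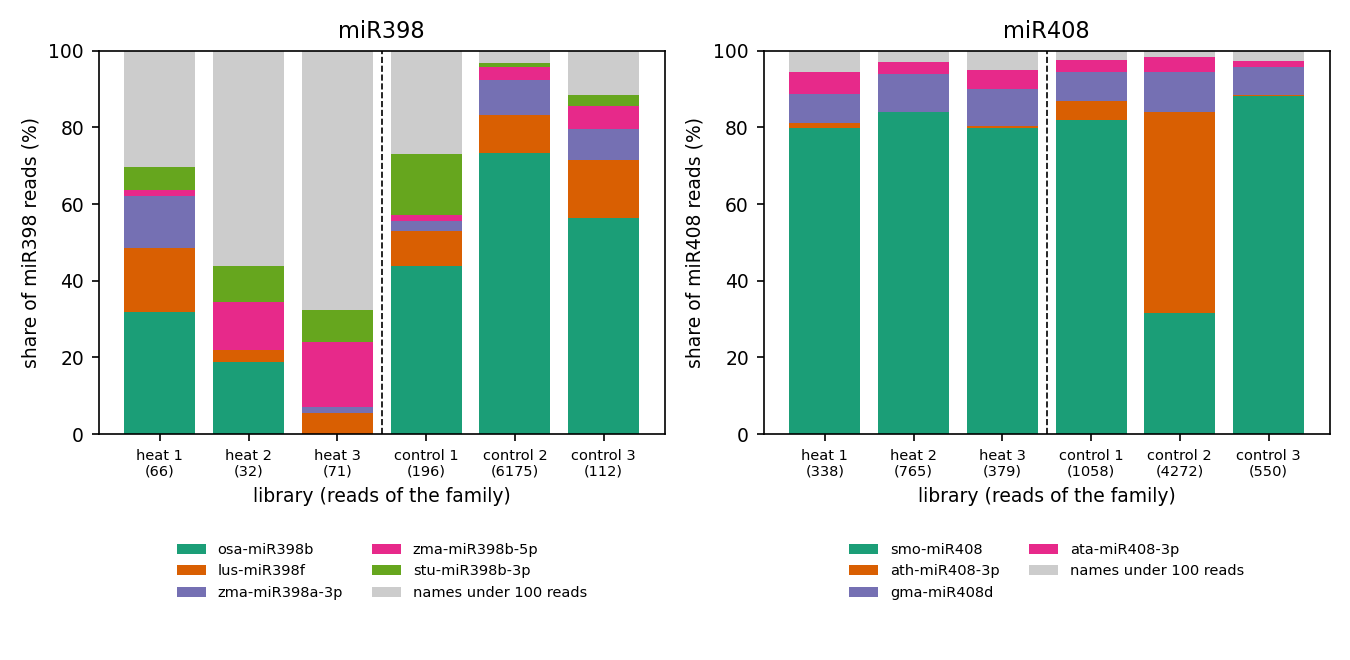
Stacked shares (%) of the reads of miR398 (left) and miR408 (right) that each name with at least 100 reads took in each library, heat left and control right of the dashed line, with the reads of the family in brackets. osa-miR398b takes 0 to 31.8% of miR398 reads under heat and 43.9 to 73.2% in controls, and ath-miR408-3p takes 52.6% of miR408 reads in control replicate 2 and under 5% elsewhere.

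The share of osa-miR398b among miR398 reads did not overlap between the groups. This name was picked for having the most reads of the family, and 96.3% of its reads lay in control replicate 2. Under heat it did not lead, with 27 reads against 37 for the opposite-arm name ata-miR398f-5p. The share is therefore no independent evidence, and leading names were not compared over all families. osa-miR398b made up 31.8% (95% Wilson interval 21.8 to 43.8), 18.8% (8.89 to 35.3) and 0% (0 to 5.13) of miR398 reads in heat replicates 1 to 3. In control replicates 1 to 3 it made up 43.9% (37.1 to 50.9), 73.2% (72.1 to 74.3) and 56.3% (47.0 to 65.1). These intervals cover counting error only, since amplified reads are not independent molecules. Shares of single names also rest on how reads were assigned among near-identical sequences, which is not given in the sources used here and was not tested in any library. The mean share differed by -40.9 percentage points, heat minus control (exact two-sided permutation p = 0.1, the smallest that 3 against 3 libraries allow), and by -33.2 points without control replicate 2 (exact p = 0.2).

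miR408 had overlapping sums in heat and control libraries. The 10 names summed to 326, 1596 and 257 RPM in heat replicates 1 to 3, against 1145, 2095 and 631 RPM in control replicates 1 to 3. In RPM, heat replicate 2 was above control replicates 1 and 3, and the other heat libraries were below all controls. Reads assigned to known miRNAs made up 3.19% of clean reads in heat replicate 2, against 5.26 to 7.97% in the other libraries. Scaled to all clean reads, the miR408 sum of heat replicate 2 (51.0) lay below control replicate 1 (63.7) and above control replicate 3 (33.2). The other heat libraries (21.4 and 20.5) stayed below all controls on that scale. The miR408 sum had a log2 fold change of -1.17 (SE 0.80, adjusted p = 0.685 in limma), -0.73 without control replicate 2, and -1.99 without heat replicate 2 (adjusted p = 0.794 in limma), where it passed.

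Most miR408 reads carried the name smo-miR408, with 260, 1339 and 205 RPM under heat, against 940, 660 and 556 RPM in controls. Here control replicate 2 was not the highest control. For smo-miR408 the log2 fold change was -0.75 (SE 0.74, adjusted p = 0.761 in limma), -0.80 without control replicate 2, and -1.60 without heat replicate 2 (adjusted p = 0.827 in limma), where it passed. gma-miR408d, the shorter form, had 25.1, 161 and 24.4 RPM under heat, against 87.7, 220 and 44.7 RPM in controls. ata-miR408-3p had 18.3, 48.0 and 12.9 RPM under heat, against 35.7, 79.9 and 10.3 RPM in controls. Both shorter names overlapped and did not pass, with log2 fold changes of -1.02 for gma-miR408d and -0.45 for ata-miR408-3p. Without control replicate 2 these values were -0.42 and 0.21, while gma-miR408d passed without heat replicate 2 (-1.91).

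ath-miR408-3p, the form that starts 1 base earlier, fell in limma, with nearly all of its reads in a single library. It had 3.86, 0 and 1.36 RPM under heat, from 4, 0 and 2 reads, against 54.1, 1101 and 2.29 RPM in controls, from 50, 2245 and 2 reads. Control replicate 3 lay within the heat range. For ath-miR408-3p the log2 fold change was -4.70 (SE 1.84, adjusted p = 0.521 in limma), and -2.58 without control replicate 2 (adjusted p = 0.740 in limma), where it did not pass. In DESeq2 it was the 1 copper miRNA name that passed after adjustment (log2 fold change -7.13, adjusted p = 0.00809), and without control replicate 2 the value there was -3.40 (adjusted p = 0.301 in DESeq2). Without that control, the fall passed unadjusted in edgeR and DESeq2. In limma the fall lost its pass without any 1 of the other libraries but control replicate 3, with values of -5.25 to -4.11.

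The name made up 1.18%, 0% and 0.528% of miR408 reads under heat, against 4.73%, 52.6% and 0.364% in controls. Accordingly smo-miR408 made up 79.9%, 83.9% and 79.9% under heat, against 82.0%, 31.5% and 88.2% in controls. The mean share of smo-miR408 was 14.0 percentage points higher under heat with all libraries (exact permutation p = 0.9) and 3.86 points lower without control replicate 2 (a difference of -3.86, exact p = 0.3).

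miR528, the monocot family, was represented by osa-miR528-5p alone, the copper miRNA with the most reads, 6520. It had 558, 899 and 184 RPM in heat replicates 1 to 3, against 2921, 998 and 582 RPM in control replicates 1 to 3. Control replicate 1 was the highest library, and heat replicate 2 lay above control replicate 3 in RPM, so the groups overlapped. Scaled to all clean reads, heat replicate 2 (28.7) lay below control replicate 3 (30.6). The groups still overlapped on that scale, since heat replicate 1 (36.7) lay above control replicate 3. The means were 547 ± 358 RPM under heat and 1500 ± 1248 RPM in controls (SD, n = 3 each). The log2 fold change was -1.40 (SE 0.79, adjusted p = 0.605 in limma) and -1.53 without control replicate 2. The family sum, fitted with the other sums, passed without control replicate 3 at -1.91 (adjusted p = 0.413 in limma).

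**Figure D3:**
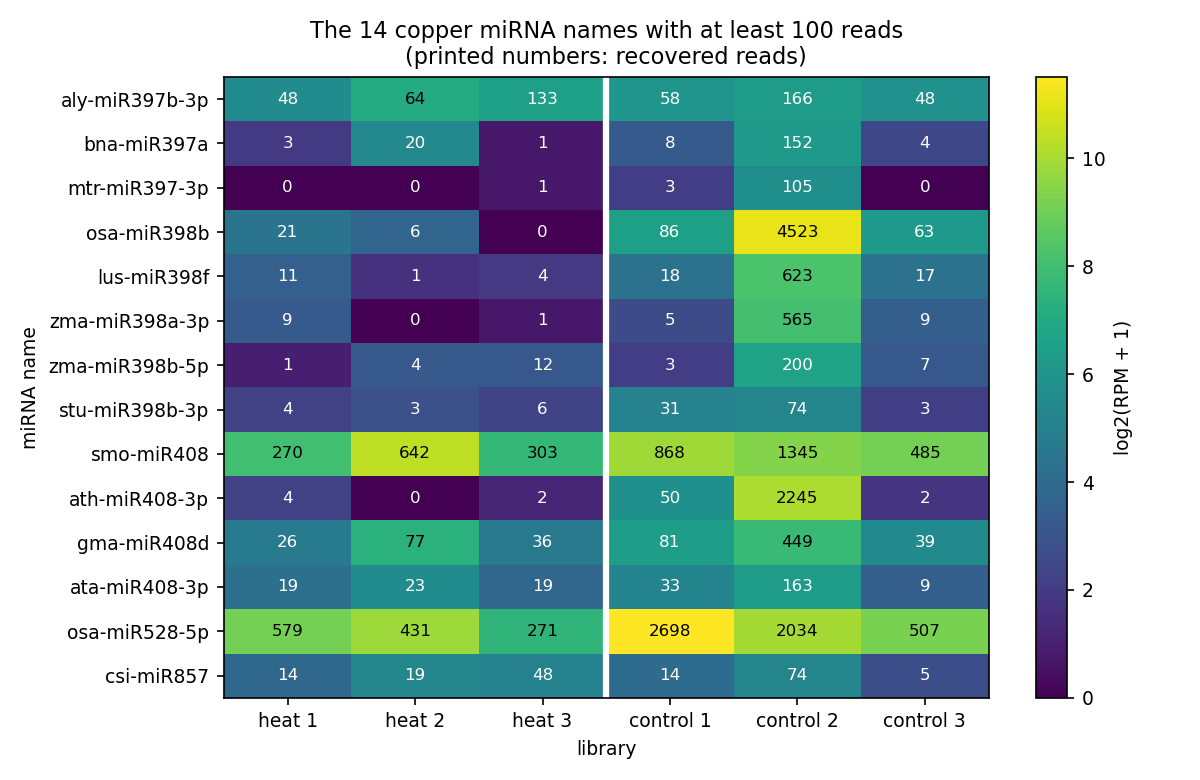
log2(RPM + 1) of the 14 copper miRNA names with at least 100 reads (rows) in each library (columns, heat left and control right of the white line), with the recovered reads printed in each field. osa-miR398b, lus-miR398f, zma-miR398a-3p and ath-miR408-3p have 565 to 4523 reads in control replicate 2 and 86 or fewer in each other library.

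miR397 sums overlapped between the groups and did not pass. The 14 miR397 names summed to 53.0, 200 and 97.6 RPM in heat replicates 1 to 3, against 79.0, 239 and 61.9 RPM in control replicates 1 to 3. The family's log2 fold change was -0.06 (SE 0.74, adjusted p = 0.976 in limma), and 0.53 without control replicate 2. Most miR397 reads were of the opposite arm, and the guide strand made up 12.7%, 33.3% and 5.56% under heat, against 13.7%, 41.3% and 11.1% in controls.

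The opposite-arm name aly-miR397b-3p had 46.3, 134 and 90.1 RPM under heat, against 62.8, 81.4 and 55.1 RPM in controls, and its log2 fold change was 0.33 (SE 0.57, adjusted p = 0.849 in limma), and 0.48 without control replicate 2. The guide-strand name bna-miR397a had 2.89, 41.7 and 0.678 RPM under heat, against 8.66, 74.5 and 4.59 RPM in controls, with a log2 fold change of -1.29 (SE 1.40), and -0.17 without control replicate 2. Both overlapped. mtr-miR397-3p had 0, 0 and 1 reads under heat, against 3, 105 and 0 reads in controls, so that it reached 100 reads through control replicate 2 alone. With reads pooled over libraries and counting error alone, its level per assigned read under heat was 0.0119 times that in controls (exact 95% interval 0.000298 to 0.0675), and without control replicate 2 it was 0.2 times (0.00381 to 2.49), which covers no difference. Its fitted log2 fold change was -2.35, and -0.79 without control replicate 2, and it passed without control replicate 3 (-3.65).

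miR857, known in Arabidopsis as a regulator of a laccase, was represented by csi-miR857, a name of 24 bases. It had 13.5, 39.6 and 32.5 RPM under heat, against 15.2, 36.3 and 5.74 RPM in controls, and the groups overlapped. Its log2 fold change was 0.76 (SE 0.80, adjusted p = 0.775 in limma), and 1.37 without control replicate 2. miR857 was the family with the highest fitted change of the 5, though it did not pass with all libraries or without control replicate 2.

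The other 27 names had 1 to 91 reads each over all libraries, 609 in sum, and 10 of them had fewer than 10. Of all 41 names, 5 had no reads in any heat library, none lacked reads in all controls, and 6 had none in control replicates 1 and 3. The 5 had 1 to 7 reads each, and control replicate 2 was the deepest library. Such counts were not made over all names, so nothing is read from them. None of the 27 low names passed in limma with all libraries.

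Over all 41 names, 3 fell in limma (osa-miR398b, lus-miR398f and ath-miR408-3p) and none rose. Among all 1597 names, 7.14% fell and 2.13% rose. The 3 of 41 names are thus close to that background. None of the 41 names passed after adjustment in limma, where 3 had an unadjusted p under 0.05, nor in edgeR, where 6 did. After adjustment in limma, 0.0626% of all names rose and 0% fell. In edgeR, 9.2% of all names fell and 3.19% rose, and the 6 copper miRNA names that fell were the 3 above with zma-miR398a-3p, stu-miR398b-3p and mtr-miR397-3p. In DESeq2, 3 names fell (ath-miR408-3p, mtr-miR397-3p and stu-miR398b-3p), against 6.06% of all names with a p that fell and 3.96% that rose. Of names with an adjusted p in DESeq2, 1.65% fell and 1.18% rose after adjustment. osa-miR398b, lus-miR398f and zma-miR398a-3p had no p there, which DESeq2 withholds where a single count is an outlier. Without control replicate 2, none of the 41 names passed in limma, against 4.45% of all names that fell and 1.94% that rose, and 2 fell in edgeR (osa-miR398b and ath-miR408-3p), against 4.26% of all names that fell and 3.26% that rose. The same 2 fell in DESeq2 without that control, against 3.68% of all names that fell and 3.03% that rose, and none of the 41 did so after adjustment, against 1.16% and 1.05%. Heat and control values did not overlap for 2 names, both lower under heat, against 9.89% of all names lower and 4.51% higher.

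The median log2 fold change of the 41 names was -0.45, with 29 below 0 and 12 above, and that of all 1597 names was -0.37, with 1054 below 0 and 543 above. Without control replicate 2 the medians were -0.17 for the copper miRNA names and -0.12 for all names. The shift of -0.37 is part of the limma fold changes of names from RPM with all libraries. It was -0.28 with TMM scaling, -0.22 with median-ratio scaling, -0.43 when scaled to all clean reads and -0.39 in edgeR. The unigenes tested had a median log2 fold change of 0.17 in limma.

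**Figure D4:**
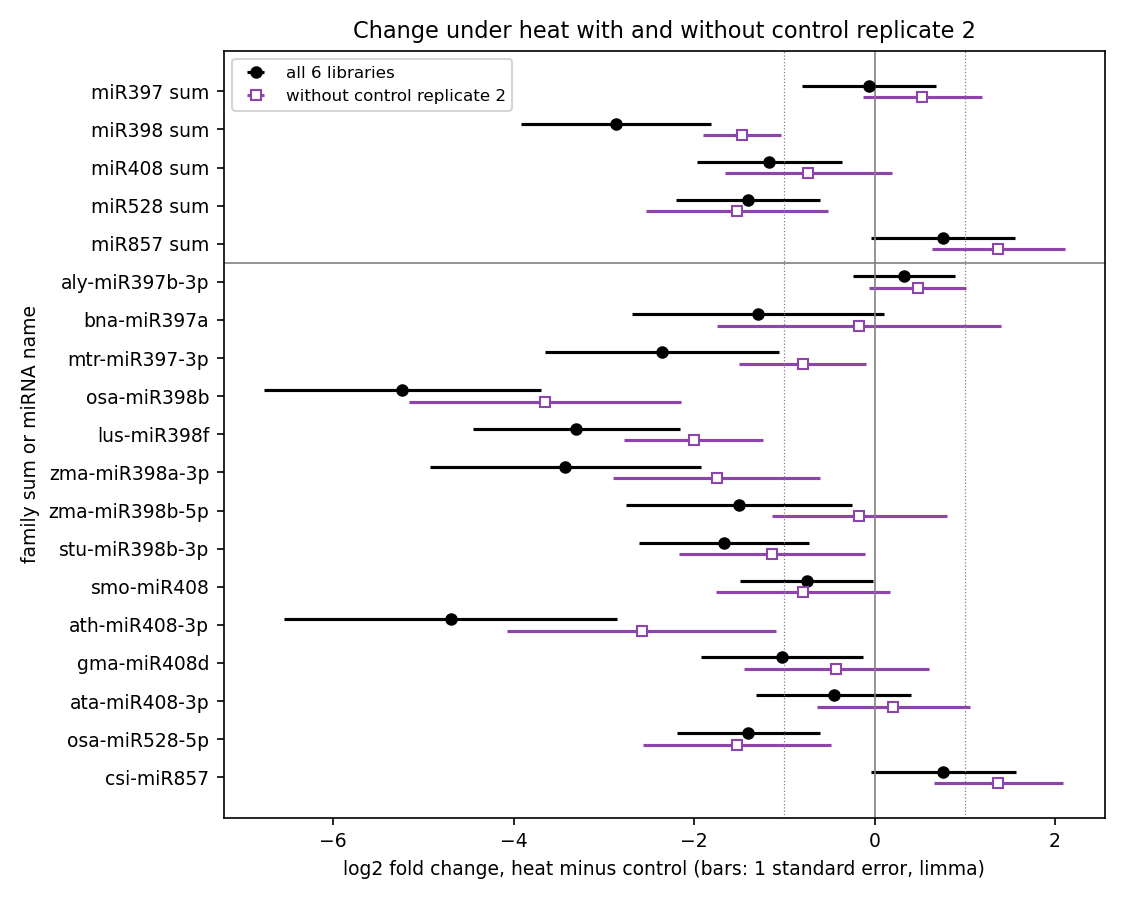
log2 fold change (heat minus control) with 1 standard error from limma, for the 5 family sums (top) and the 14 names with at least 100 reads, with all 6 libraries (black circles) and without control replicate 2 (open purple squares). The value of osa-miR398b is -5.23 with all libraries and -3.65 without that control, and those of the miR528 name are -1.40 and -1.53.

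Unigenes, the assembled mRNAs, were examined for predicted targets of the copper miRNAs and for copper-binding annotations or blue copper protein names. Their values are TPM, an abundance per transcript length within a library, which does not keep the depth. The part of the study's target table at hand pairs 4 unigenes with copper miRNA names. TRINITY_DN61795_c0_g1, a predicted target of zma-miR398a-3p, had 9.91, 6.76 and 7.73 TPM under heat, against 11.3, 11.8 and 21.1 TPM in controls. The groups did not overlap, as in 11.2% of all unigenes tested that lay wholly below the controls and 22% wholly above, and limma over 68978 unigenes gave a log2 fold change of -0.74 (SE 0.29, adjusted p = 0.131), which did not pass. TRINITY_DN86555_c0_g1 and TRINITY_DN36331_c0_g1, predicted targets of the same miRNA, and TRINITY_DN91572_c0_g1, predicted for mtr-miR397-3p, averaged under 1 TPM over the libraries and were not tested. TRINITY_DN36331_c0_g1 had 0.274, 1.72 and 1.30 TPM under heat and was listed at 0 in all controls.

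The list held 6 unigenes with a copper-binding annotation or a blue copper protein name. Calls here use limma's adjusted p (threshold 0.05) with the same fold threshold. Of the 6 unigenes, 2 fell and 2 rose, against 4.05% and 6% of all unigenes tested. All but TRINITY_DN67678_c1_g1 had been listed by the study as changed on these same libraries, the mavicyanins as lower and the rest as higher. Their counts and directions are therefore no independent evidence, and nothing is read from the comparison with all unigenes. Both falls were of mavicyanins, blue copper proteins of the phytocyanin family, which the study pairs with a miRNA outside the copper families. TRINITY_DN71342_c3_g1 had 89.4, 52.0 and 50.9 TPM under heat, against 240, 255 and 229 TPM in controls (log2 fold change -1.95, SE 0.27, adjusted p = 0.00257 in limma). TRINITY_DN65549_c0_g2 had 35.6, 14.3 and 14.6 TPM under heat, against 68.6, 82.3 and 51.3 TPM in controls (log2 fold change -1.71, SE 0.36, adjusted p = 0.0162 in limma). In both, every heat library was below every control. TRINITY_DN65549_c0_g2 lost its call without control replicate 1 (adjusted p = 0.0537 in limma), control replicate 2 (0.0618), heat replicate 2 (0.0599) or heat replicate 3 (0.0693), and with no filter on low TPM (0.0973).

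The rises were of unigenes annotated as glycine-rich RNA-binding proteins. TRINITY_DN52549_c0_g1 had 26.2, 28.2 and 24.9 TPM under heat, against 6.59, 5.80 and 7.07 TPM in controls (log2 fold change 1.87, adjusted p = 0.00123 in limma). TRINITY_DN60082_c2_g1 had 4.97, 7.44 and 5.24 TPM under heat, against 1.19, 1.22 and 0.833 TPM in controls (log2 fold change 1.71, adjusted p = 0.00537 in limma). Neither pair of groups overlapped. The CutA unigene TRINITY_DN66820_c0_g2 had 13.6, 14.7 and 17.4 TPM under heat, against 8.08, 7.70 and 5.67 TPM in controls, with a log2 fold change of 0.998 (adjusted p = 0.0311 in limma), just under the fold threshold. TRINITY_DN67678_c1_g1, a succinate-semialdehyde dehydrogenase, averaged 5.24 ± 1.00 TPM under heat and 4.31 ± 0.592 TPM in controls (SD, n = 3 each) and did not pass (log2 fold change 0.23, adjusted p = 0.610 in limma).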

How the data were processed

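Both tables were used as deposited. For miRNAs, the authors removed adapters with cutadapt, selected lengths of 17 to 35 bases, discarded Rfam matches and compared the rest with plant miRNAs of miRBase, and deposited RPM. The aligner and the mismatches allowed are not given in the sources used here, so reads may be split among near-identical names. For mRNA, the authors assembled unigenes with Trinity and deposited TPM estimated with Salmon, which keep no depth. Reads were recovered from the RPM as multiples of the lowest value above 0.

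The members and lists were chosen with earlier results of these data known. Members followed the rule of names, and those with at least 100 reads were given in full. limma 3.58.1 (R 4.3.3, eBayes with trend) was fitted to log2(RPM + 1) of all 1597 names, to the 699 sums of names by number, and to log2(TPM + 1) of the 68978 unigenes averaging 1 TPM or more, with Benjamini-Hochberg adjustment. The thresholds were those of the published methods, an unadjusted p for miRNAs and an adjusted p for unigenes. A name was of the guide strand if it shared at least 7 bases in a row with a reference guide sequence of its family. The only names of miR528 and miR857 were their own reference, so both counted as guide strand by definition. Alternatives were pseudocounts of 0.5 and 10 RPM or 0.1 TPM, a filter at a mean of 5 RPM, no TPM filter, TMM, median-ratio and clean-read scaling, edgeR 4.0.16 (quasi-likelihood) and DESeq2 1.42.0 on recovered reads, guide strand alone, a block by replicate number, and leaving out each library. The limma p-values set the difference between heat and control against the spread between these libraries, moderated over everything fitted together. Those of the shares come from permuting the libraries. No genome was used, and only part of the study's target table was at hand.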

Additional observations from a re-analysis of the deposited data

How the results depend on the processing

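The 3 names that fell became 4 with a pseudocount of 0.5 RPM or a filter at a mean of 5 RPM, zma-miR398a-3p being added. They became 1 with a pseudocount of 10 RPM and 6 in edgeR. With 1 library left out they became 0 to 8 (0 without control replicate 2, 8 without control replicate 3). With clean-read scaling without control replicate 2 they became 0. The 0 names that rose became 0 to 1 with 1 library left out, the 1 being zma-miR397a-5p (1.94 without heat replicate 1, on 7 reads in all libraries). osa-miR398b passed without any 1 library but control replicate 2. The miR398 sum kept its direction under all alternatives run. Its log2 fold change was -1.37 in edgeR without control replicate 2, where it did not pass, and -3.75 to -1.47 with 1 library left out; it did not pass without heat replicate 1 (-2.92) or heat replicate 3 (-2.72). DESeq2 gave no p for that sum with all libraries, and -1.41 without control replicate 2, where it did not pass. For 3 names it gave none, and the 3 it called lower shared only ath-miR408-3p with limma. The miR397 sum turned positive with TMM (0.11), median-ratio scaling (0.18) and edgeR (0.044), and also without control replicate 2 in edgeR (0.73), in DESeq2 (0.63), with clean-read scaling (0.55) and for the guide strand alone (0.64); with 1 library left out it ranged from -0.55 to 0.53 and was above 0 without control replicate 2 and without heat replicate 1 (0.40). With 1 library left out the miR528 sum ranged from -1.91 to -0.75 and passed without control replicate 3, and the miR408 sum ranged from -1.99 to -0.67 and passed without heat replicate 2. The cause was not tested.

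Without control replicate 2, edgeR gave log2 fold changes above 0 for bna-miR397a (0.97), zma-miR398b-5p (0.11), gma-miR408d (0.12) and ata-miR408-3p (0.37), and DESeq2 gave 1.10, 0.00082, 0.10 and 0.35 for the same names. For ata-miR408-3p the limma value was -1.21 to 0.21 with 1 library left out, 0.21 being without control replicate 2, and 0.23 with clean-read scaling. aly-miR397b-3p stood at -0.020 without heat replicate 2. The share difference of smo-miR408 was -3.86 to 24.5 points with 1 library left out, the lower end without control replicate 2. The alternatives without control replicate 2 that combine it with edgeR, DESeq2, clean reads or the guide strand were chosen after seeing the data.

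The replicate numbers gave no sign of pairing. Deviations of same-numbered libraries correlated at -0.07, 0.08 and -0.09 for miRNAs and at -0.14, -0.06 and 0.14 for mRNA. Those of differently numbered libraries correlated at -0.13 to 0.19 for miRNAs and at -0.16 to 0.25 for mRNA. So few libraries cannot settle whether the design was paired. With the replicate block, 3 names fell, the miR398 sum stayed at -2.87, and no call changed. Of the copper-binding unigenes, 4 were called with the filter on TPM and 3 without it. Depth limits the low names, since 3 reads are worth 1.47 to 6.26 RPM.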
